A study of Mus musculus with 18 samples.

Results

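The locus of Zfp503 and Lrmda on mouse chromosome 14 was examined for binding of Pitx1 in hindlimb buds and of Tbx5 in forelimb buds by chromatin immunoprecipitation and sequencing (ChIP-seq). It was taken as every deposited summit, the highest point of a peak, from 200 kb below Zfp503 to 100 kb above Lrmda (mm10, chr14:21783959-23156093). This stretch of 1372.1 kb held 113 of 54941 Pitx1 summits and 60 of 10273 Tbx5 summits, 173 of 65214 in all. The locus was chosen by the numbers of summits assigned to genes, in which Lrmda came first for Tbx5, so the counts in it are descriptions and were not tested.

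The Pitx1 map came from hindlimbs at e11.5 and the Tbx5 map from forelimbs at e10.5, both from wild-type embryos of CD1, an outbred strain, and each was made with a homemade antibody. The series set out to compare the gene networks of the 2 limbs, and its other samples, histone marks and inputs, are not analysed here. Each factor has 1 sample and thus no replicate error, and factor, limb, stage and antibody differ together and cannot be told apart. A summit list from whole buds also cannot tell a site bound in few cells from one bound weakly in many, and the tissue labels could not be checked on marker genes.

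Zfp503 encodes a nuclear zinc finger protein of the family that includes elbow and no ocelli of the fly, which act in fly appendages and airways, and it represses transcription with partner proteins. It is known from the developing striatum, where it is also called Nolz1. Lrmda encodes a leucine-rich repeat protein, and loss of its human counterpart causes a form of albinism. Pitx1 is a homeodomain transcription factor that sets hindlimb identity. Tbx5 is a T-box transcription factor that the forelimb needs in order to form. Enhancers of developmental genes often lie inside a long neighbouring gene, so the position of a site in Lrmda does not name the gene it acts on.

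Both genes start near each other and point apart. Zfp503 (chr14:21983959-21989601) is 5.64 kb long and lies on the minus strand, and Lrmda (chr14:22019504-23056093) is 1036.6 kb long and lies on the plus strand. The 29.9 kb between them hold the RefSeq long noncoding RNA genes A330001L22Rik, which overlaps the start of Zfp503, and Gm41106. Distances below are counted from the start of Zfp503 at position 21989601, and positive values run towards and into Lrmda, which is upstream of Zfp503. The other protein-coding genes that reach into the window are Samd8, Vdac2, Comtd1 and A430057M04Rik, all below Zfp503.

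The start of Zfp503 is the point from which all sites were measured, and the 250 bases before it carried no summit of either factor. They are shown 5′ to 3′ on the minus strand as RefSeq gives them for GRCm38.p6, the assembly that mm10 represents (chr14:21989602-21989851), with capitals at the match to the T-box core described next.
Zfp503 promoter: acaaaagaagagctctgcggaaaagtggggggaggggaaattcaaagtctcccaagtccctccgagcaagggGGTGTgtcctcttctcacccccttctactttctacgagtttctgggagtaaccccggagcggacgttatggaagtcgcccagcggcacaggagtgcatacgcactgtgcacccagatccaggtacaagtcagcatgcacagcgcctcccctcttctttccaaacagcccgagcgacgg
On both strands, these bases held neither TAATCC, the sequence that Pitx1-type homeodomains prefer, nor AGGTGT, the T-box sequence. Stretches of 250 bases before the starts in the whole promoter table, 32536 of them, held TAATCC in 6.25% and AGGTGT in 11.9%. The shorter cores, added after these had given no match, were TAAT, with no match, and GGTGT, the last letters of the T-box sequence. It matched once, beginning 178 bases before the start. Of the stretches in the table, 54.8% held TAAT and 36.3% held GGTGT. Of the stretch shown, 57.2% of bases were G or C. For Lrmda the table gives a start at position 22019712, inside the gene as annotated, and its sequence is not shown because it overlaps transcribed bases.

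Zfp503 itself carried Pitx1 summits and no Tbx5 summit. It is 5.64 kb long, and the locus held 43.7 Tbx5 summits per Mb. Over the whole Pitx1 list, 7.39% of summits had a Tbx5 summit within 200 bp. The lack of Tbx5 summits in the gene was not tested. The gene body held 5 Pitx1 summits, with scores from 2.889 to 27.27 and a median of 12.93. The score is the authors' −log10 of the q-value of the peak, in which larger values mean a clearer peak. The Pitx1 summits nearest the start were 457 bp inside the gene (score 23.83) and 869 bp before it (score 6.487). Together with their neighbours they formed the largest Pitx1 cluster of the locus when summits up to 5 kb apart were joined, with 9 summits over 11.44 kb (chr14:21983011-21994447). The gene lies within this cluster.

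A pair of shared sites lay just upstream of Zfp503, inside A330001L22Rik. Summits of the 2 factors at most 200 bp apart were counted as a shared site. At 1.85 kb a Pitx1 summit scored 157.0 (position 21991447), and the Tbx5 summit 79 bp from it scored 32.81. At 4.84 kb the summits were 3 bp apart, with scores of 15.84 for Pitx1 and 11 for Tbx5. Within 5 kb of the start lay 7 Pitx1 summits, whereas these 2 were the only Tbx5 summits, and the next Tbx5 summit on the other side lay at -85.61 kb. The start of Lrmda in the promoter table had 1 Pitx1 summit within 5 kb, 1.33 kb inside the gene with a score of 4.322, and no Tbx5 summit.

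Most sites of both factors lay inside Lrmda. The gene body held 82 Pitx1 summits, or 79.1 per Mb, and 50 Tbx5 summits, or 48.2 per Mb. Between the genes there were 4 Pitx1 and 2 Tbx5 summits, in the 200 kb below Zfp503 16 and 5, and in the 100 kb above Lrmda 6 and 3. Of the neighbouring genes, Samd8, a sphingomyelin synthase relative, held 5 Pitx1 summits over its whole length with scores up to 9.542 and no Tbx5 summit. A430057M04Rik held 2 Pitx1 summits and 1 Tbx5 summit, with scores up to 15.1 and 3.602. Vdac2, a channel of the outer mitochondrial membrane, and Comtd1, which encodes a methyltransferase-like protein, held none of either factor.

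**Figure D1:**
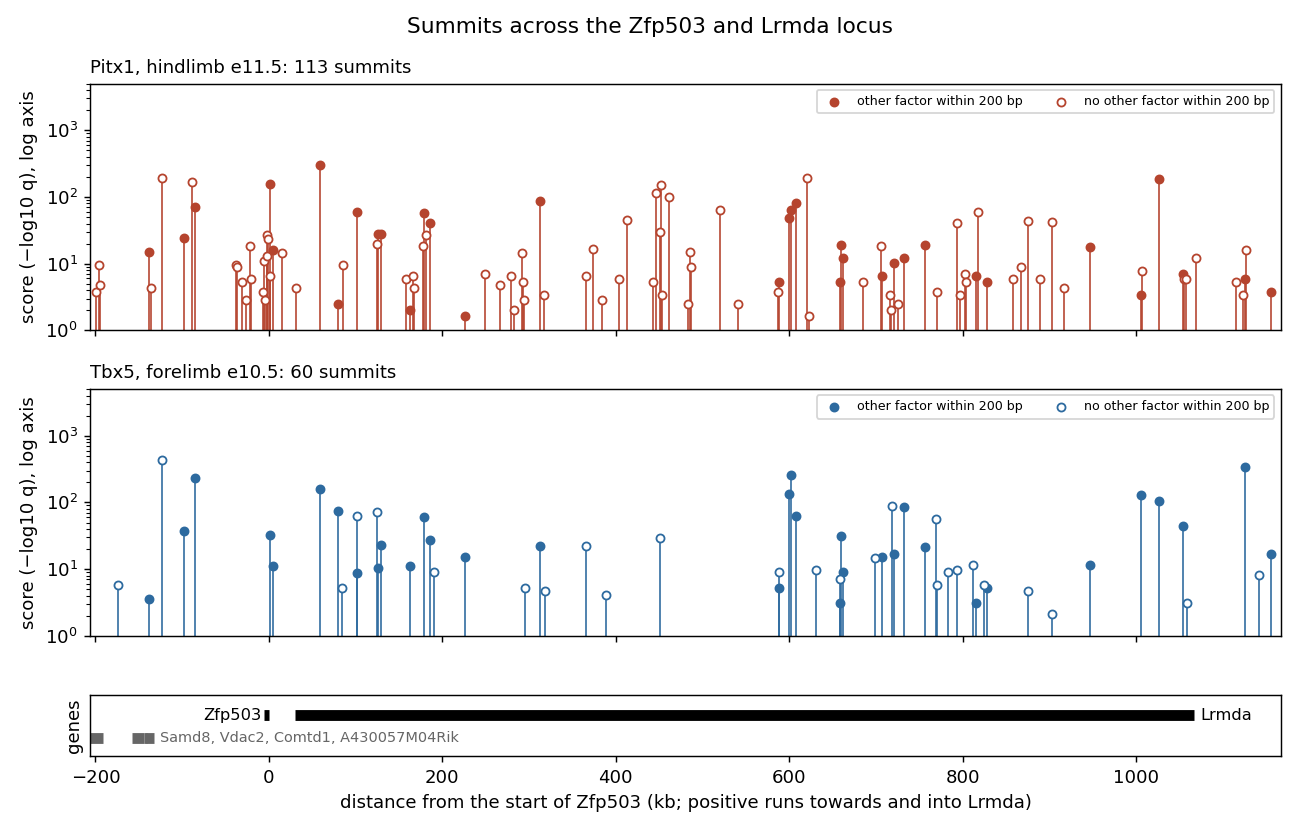
Summits of Pitx1 in hindlimbs at e11.5 (top) and Tbx5 in forelimbs at e10.5 (middle) by distance from the start of Zfp503 in kb, with the score (−log10 q) on a log axis; filled points have a summit of the other factor within 200 bp, and bars below show protein-coding genes. The 5 Pitx1 summits inside Zfp503 have no Tbx5 counterpart, and a stretch of 137.2 kb inside Lrmda has Pitx1 summits with scores up to 150.2 and no Tbx5 summit. Over the whole Pitx1 list, 7.39% of summits have a Tbx5 summit within 200 bp.

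The density of summits was high for both factors. The window makes up 0.0504% of the 2722 Mb of chromosome sequence considered. It held 0.206% of the Pitx1 list (exact 95% interval 0.17 to 0.247), 4.08 times its part of the sequence, and 0.584% of the Tbx5 list (0.446 to 0.751), 11.6 times. These ratios follow in part from the choice of the locus by its summit numbers, and the intervals cover only the counting of summits. The genome was also divided into windows of the same length, and 1971 of them did not overlap the locus. They held a median of 25 Pitx1 summits (quartiles 10 and 40) and 4 Tbx5 summits (quartiles 1 and 8). Of these windows, 3 held at least as many Pitx1 summits as the locus, up to 168, and none held as many Tbx5 summits. Unlike them, the window of the locus was placed around a gene chosen by its summit numbers. Its place among them is thus partly set by that choice. The highest Tbx5 count elsewhere was 50, on chromosome 2 in a window that holds Lnpk and Mtx2, the genes beside the Hoxd cluster.

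**Figure D2:**
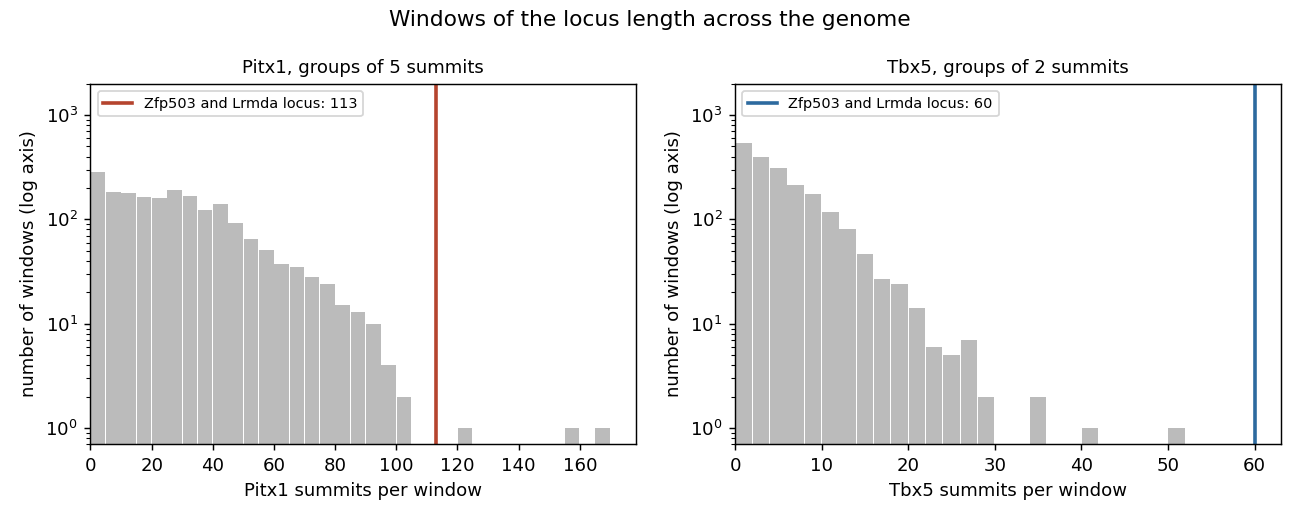
Number of genome windows of 1372.1 kb (log axis) by the number of Pitx1 summits (left) and Tbx5 summits (right) they hold, without those that overlap the locus; the coloured lines mark the locus. For Pitx1 the locus, at 113, lies below 3 windows, and for Tbx5, at 60, it lies above all of them. The locus was chosen by its summit numbers, so its place is partly set by that choice.

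Lrmda was set beside other long genes. Among 226 protein-coding genes of at least 500 kb, Lrmda stood at place 9 for the density of Pitx1 and place 1 for that of Tbx5 summits, and the medians over these genes were 15.9 and 2.82 per Mb. Mecom, a zinc finger regulator gene, had the highest Pitx1 density, 134.0 per Mb, with 32.2 Tbx5 summits per Mb. Auts2 had 90.4 Pitx1 and 18.1 Tbx5 summits per Mb, and Tenm4, an adhesion receptor gene, 75.7 and 28.4. These 3 genes were known beforehand to hold many summits. Place and density follow from the way the locus was chosen, and no test was made.

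The closest relative of Zfp503, Zfp703, also had sites of both factors around it. With 100 kb on either side, Zfp503 held 23 Pitx1 summits with scores up to 303.6 and 7 Tbx5 summits with scores up to 231.5, of which 6 were shared. The same span around Zfp703 held 17 Pitx1 summits with scores up to 116.3 and 7 Tbx5 summits with scores up to 122.8, of which 4 were shared. Genes of pigmentation, the process for which Lrmda is known, were counted over the same span. Tyr, which encodes the first enzyme of melanin synthesis, had none of either factor, and Oca2, a melanosome transporter gene, had 1 Tbx5 summit with a score of 3.098. Tyrp1 had 3 Pitx1 summits, Slc45a2 had 9 and Slc24a5 had 4, with scores up to 29.04, and these 3 genes had no Tbx5 summit. Over the genome there were 20.2 Pitx1 and 3.77 Tbx5 summits per Mb, and 39.5% of the whole Tbx5 list was shared. The spans differ in length, and these counts were not tested against the rest of the genome.

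The counts of the 2 factors were only weakly related along the locus. In 27 full bins of 50 kb, Pitx1 summits numbered between 1 and 10 with a median of 3, and Tbx5 summits between 0 and 5 with a median of 2. Every such bin had a Pitx1 summit, and 4 had no Tbx5 summit. The counts of the factors had a Pearson correlation of 0.158 and a Spearman correlation of 0.227 across these neighbouring bins of 1 locus, which share their sequence and their libraries. Without the shared summits the values were -0.125 and 0.0357. Shared summits coincide by definition, so lower values without them are no separate result. Counts per bin were small, and none of these values was tested.

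Tbx5 summits were concentrated in 2 stretches of Lrmda, which were picked out after the bin counts had been seen. From 44.4 to 194.4 kb there were 15 Pitx1 and 12 Tbx5 summits, 8 of them shared. From 594.4 to 844.4 kb there were 25 Pitx1 and 22 Tbx5 summits, 12 of them shared. In the 8 bins between these stretches 28 Pitx1 summits stood beside 9 Tbx5 summits, and 3 were shared. Over the whole locus 30.1% of Pitx1 and 56.7% of Tbx5 summits were shared, and over the whole lists 7.39% and 39.5%. Sharing was not compared between the stretches by a test. The bin next to Zfp503 on its lower side, from -55.6 to -5.6 kb, held 7 Pitx1 summits with a median score of 5.92 and no Tbx5 summit.

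**Figure D3:**
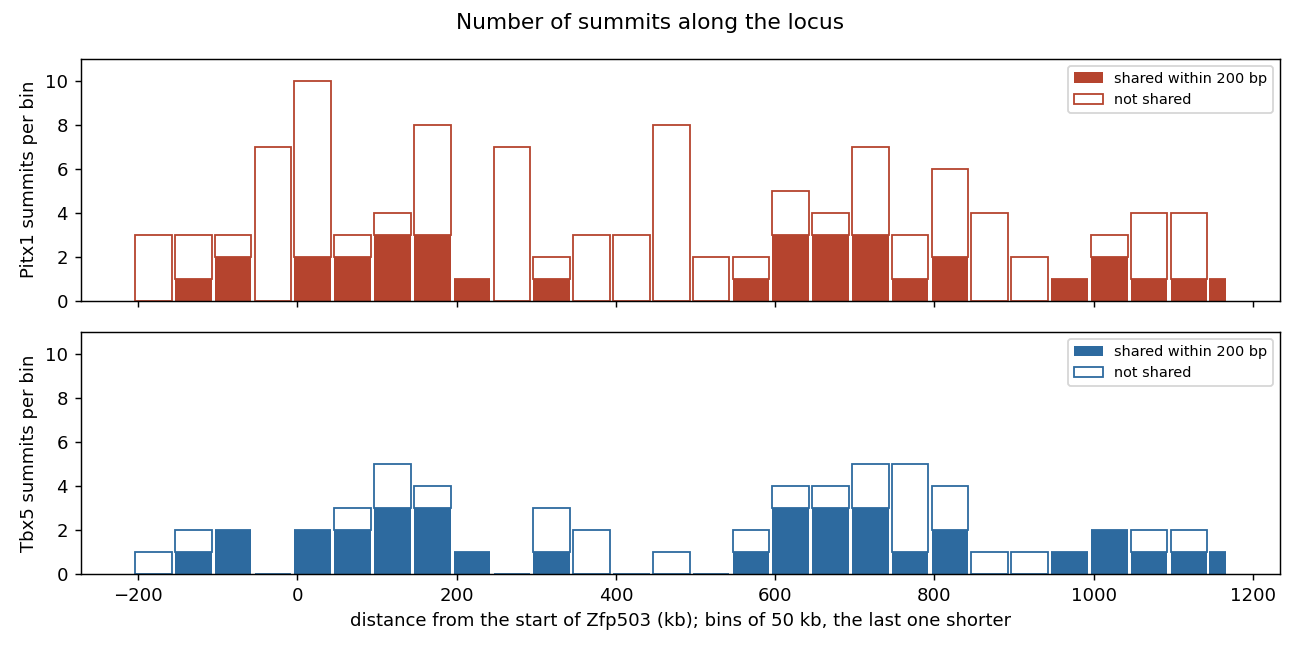
Number of Pitx1 summits (top) and Tbx5 summits (bottom) in bins of 50 kb by distance from the start of Zfp503 in kb; filled parts are summits with one of the other factor within 200 bp. The bin that starts at -5.6 kb holds 10 Pitx1 summits, and Tbx5 bins reach 5.

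The longest run without Tbx5 contained strong Pitx1 sites. It spanned 137.2 kb, between Tbx5 summits at 450.7 and 587.8 kb, and held 10 Pitx1 summits with scores from 2.451 to 150.2 and a median of 12, of which 3 scored over 50. A Pitx1 cluster of 5 summits over 10.19 kb overlapped its lower end, with scores of 115.1 at 446.48 kb and 150.2 at 452.46 kb. A Tbx5 summit with a score of 29.07 lay within this cluster, over 200 bp from each of its Pitx1 summits. A Pitx1 summit with a score of 101.4 followed at 461.96 kb. The second longest run without Tbx5, of 87.4 kb, contained the whole of Zfp503 and held 13 Pitx1 summits with scores up to 27.27. The longest run without Pitx1 was shorter, 58.2 kb, and held no Tbx5 summit either. The locus has 113 Pitx1 and 60 Tbx5 summits, and the part of these numbers in the lengths of the runs was not tested.

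Pitx1 summits formed more groups and larger ones. Joined at 5 kb, the 113 Pitx1 summits made 63 groups, of which 25 had several summits and together held 75. The 60 Tbx5 summits made 46 groups, of which 11 had several summits and held 25. After the cluster at Zfp503 and that of 5 summits, the Pitx1 cluster of 4 summits with the highest score spread over 8.24 kb (chr14:22166828-22175072), with scores from 18.14 to 57.61 and 2 of them shared. The largest Tbx5 cluster had 4 summits over 3.53 kb (chr14:22647896-22651424), with scores from 3.098 to 30.92, and 3 of them were shared with the 3 Pitx1 summits there. Tbx5 clusters of 3 summits (chr14:22113801-22118629, scores up to 72.08) and of 2 summits (chr14:22589598-22591405, scores of 134.7 and 254.3) came next. The density of summits in the locus also differed, at 82.4 per Mb for Pitx1 and 43.7 per Mb for Tbx5, and its part in the clustering was not tested.

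Many sites carried summits of both factors. In the locus 34 of 113 Pitx1 summits, or 30.1% (exact 95% interval 21.8 to 39.4), had a Tbx5 summit within 200 bp, against 7.39% of the whole Pitx1 list and 7.34% of the Pitx1 summits elsewhere. Of the 60 Tbx5 summits, 34, or 56.7% (43.2 to 69.4), had a Pitx1 summit within 200 bp, against 39.5% of the whole Tbx5 list and 39.4% (38.5 to 40.4) of the Tbx5 summits elsewhere. The density of Tbx5 summits was 43.7 per Mb in the locus and 3.77 per Mb over the genome, that of Pitx1 summits 82.4 and 20.2, and the part of density in these shares was not tested. Shared summits were a median of 56.5 bp apart in the locus and 60 bp elsewhere. Pitx1 summits over 1000 bp from any Tbx5 summit numbered 65 of 113 in the locus, or 57.5%, against 89.3% of the whole list. For Tbx5 summits over 1000 bp from any Pitx1 summit the number was 12 of 60, against 44.9% of the whole list. Intervals on these shares reflect only how many summits were counted.

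Sharing in the locus was higher among higher-scoring summits. Of Pitx1 summits at or above the median score of their list, 23 of 60 were shared, 38.3%, and below it 11 of 53, 20.8%. For Tbx5 the numbers were 29 of 44, 65.9%, and 5 of 16, 31.2%. Elsewhere in the lists the shares were 11% and 3.6% for Pitx1 and 47.9% and 30.5% for Tbx5.

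The strongest shared site lay in Lrmda at 59.34 kb, where the Pitx1 summit scored 303.6 (position 22048940, rank 106 of its list) and the Tbx5 summit 107 bp away 157.8 (rank 172). This position is also inside the long noncoding RNA gene Gm41107. At 1026.19 kb, near the far end of Lrmda, the summits were 3 bp apart (position 23015790), with scores of 187.4 for Pitx1 and 103.5 for Tbx5. At -85.61 kb, in the stretch below Zfp503 that holds no protein-coding gene, the scores were 70.77 for Pitx1 and 231.5 for Tbx5 at a distance of 36 bp. All 3 sites were in the second Pitx1 list, which is described further on.

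A group of 3 strong shared sites lay close together near the middle of Lrmda. At 600.0 kb the scores were 49.23 for Pitx1 and 134.7 for Tbx5, at 601.8 kb 63.01 and 254.3, and at 608.25 kb 82.22 and 61.85. Shared sites were ordered by the worse of their 2 ranks among the summits of the locus. The remaining sites among the first 10 were at 178.73 kb (57.61 for Pitx1 and 59.63 for Tbx5), at 185.42 kb (41.21 and 27.25), at 312.42 kb (86.91 and 21.97) and the site at 1.85 kb beside Zfp503. In these 10 pairs the summits were at most 107 bp apart.

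The strongest Tbx5 summit of the locus narrowly missed the distance for sharing. At -123.26 kb the Pitx1 summit scored 190.2 and the Tbx5 summit 269 bp away (position 21866345) scored 432.6, rank 17 of 10273. At 1125.62 kb, above the end of Lrmda, the Pitx1 summit scored 5.921 and the Tbx5 summit 83 bp away 341.1 (rank 32). A similar contrast was seen at 1005.7 kb, with scores of 3.347 for Pitx1 and 130.7 for Tbx5, and at 79.76 kb, with 2.451 and 75.56 at summits 4 bp apart. At 732.44 kb the scores were 12.23 for Pitx1 and 85.06 for Tbx5, and at 718.88 kb a Tbx5 summit of 88.68 had no Pitx1 summit within 1000 bp.

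The 10 highest Pitx1 scores of the locus fell on shared and unshared sites. Of these summits 4 had a Tbx5 summit within 200 bp and 6 had none, beside 30.1% shared among all Pitx1 summits of the locus and 7.39% in the whole list. Apart from the 3 in or next to the long run without Tbx5 and the one at -122.99 kb, those with none were a summit of 194.5 at 620.03 kb, 10873 bp from the nearest Tbx5 summit, and one of 166.5 at -88.71 kb, 3104 bp away. Summits in the top 10% of their list numbered 23 for Pitx1, or 20.4% of those in the locus, against 10.2% of the list with ties. For Tbx5 they numbered 16, or 26.7%, against 10.1%. Over 1000 bp from the other factor were 8 of these 23 Pitx1 summits, beside 89.3% of the whole Pitx1 list, and 1 of these 16 Tbx5 summits, beside 44.9% of the whole Tbx5 list. The lists differ in length and in these shares, so the 2 counts are not a like comparison, and their difference was not tested. The 7.39%, 89.3% and 44.9% also cover summits of all scores, and sharing was higher among higher-scoring summits outside the locus too. Shares for equally high scores elsewhere are not given here. The counts for high scores thus do not show whether the locus differs from the lists at equal score.

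Scores of the factors were loosely related where sites were shared. Across the 34 pairs the Spearman correlation of the scores was 0.396, given as a description because the pairs come from 1 sample of each factor and lie in 1 locus. In 7 pairs both summits were in the top 10% of their list. In 3 pairs Tbx5 was in its top 10% while Pitx1 was below the median of its list, and in no pair was the reverse found. Pairs of these kinds were not counted elsewhere in the lists, so their numbers have no background. Of the 34 shared summits of each factor, 5 of Tbx5 and 11 of Pitx1 were below the median of their list. Elsewhere in the lists the numbers were 1510 of 4028 shared Tbx5 summits and 976 of 4027 shared Pitx1 summits. The lists also differ in length, with 54941 Pitx1 and 10273 Tbx5 summits, and this contrast was not tested. The summits were within 10 bp of each other in 7 pairs, again with no count elsewhere in the lists. These include 3 low Pitx1 scores, of 2.451, 2.035 and 1.642, beside Tbx5 scores of 75.56, 11 and 15.45, with summits 4, 0 and 4 bp apart.

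**Figure D4:**
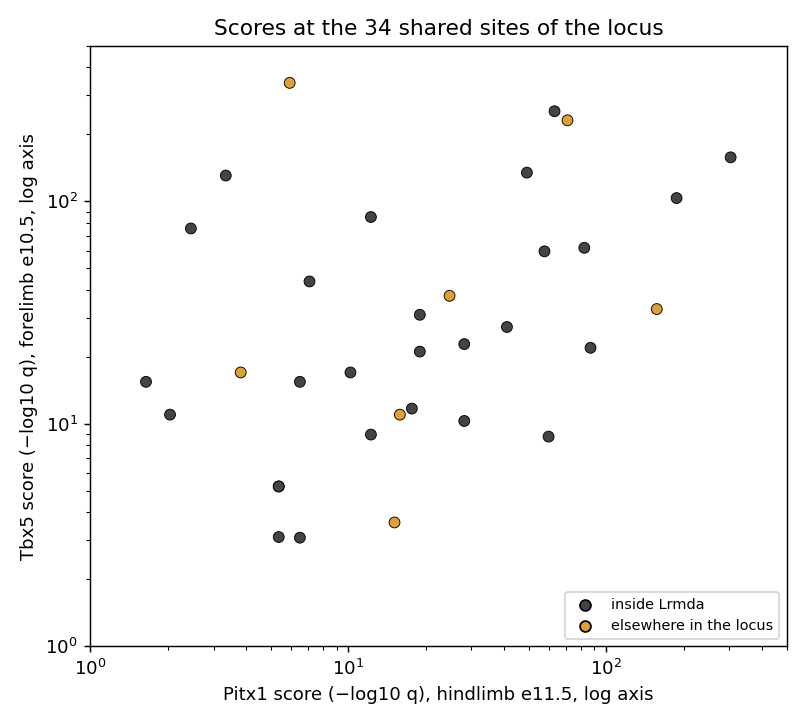
Pitx1 score against Tbx5 score (−log10 q, both axes log) at the 34 shared sites, dark inside Lrmda and yellow elsewhere in the locus. Sites with a high Tbx5 score range over Pitx1 scores from 2.451 to 303.6.

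The median score of the locus lay close to that of the list for Pitx1 and above it for Tbx5, which was not tested. The median Pitx1 score was 7.666 in the locus (quartiles 4.838 and 24.68) and 7.069 elsewhere (3.825 and 15.1). For Tbx5 it was 15.06 in the locus (6.715 and 57.98) and 8.288 elsewhere (4.669 and 18.63). At or above the median of their list were 60 of 113 Pitx1 summits, 53.1% against 50.6% of the list, and 44 of 60 Tbx5 summits, 73.3% against 51.6%. The shared Pitx1 summits of the locus had a median of 16.74 and the others 6.487, and for Tbx5 the medians were 22.4 and 8.946. By position, the 5 Tbx5 summits below Zfp503 had a median of 37.64, with scores from 3.602 to 432.6. For the 50 inside Lrmda the median was 13.2, with scores from 2.153 to 254.3. For the 2 between the genes it was 21.9, and for the 3 above Lrmda 17.02.

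The second deposited Pitx1 list, a subset of 17783 summits of the longer one with no rule given in the sources used here, kept 42 of the 113 summits. This was 37.2% (28.3 to 46.8), against 32.4% of the whole list. It kept all 23 summits of the locus that were in the top 10% of the longer list. The share it kept of such summits elsewhere was not counted, so this number has no background. At or above the median score it kept 38 of 60, 63.3%, against 54.2% elsewhere, and below it 4 of 53, 7.55%, against 10% elsewhere. Of the 5 summits inside Zfp503, 1 was kept, the one with a score of 27.27, while the summit of 23.83 next to the gene start was not. Of the shared Pitx1 summits of the locus, 17 of 34 were kept, 50% against 58.7% elsewhere, and of the others 25 of 79, 31.6% against 30.3%.

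Few peak numbers were absent within the locus. Peaks are numbered in genome order in both lists and some numbers are absent. Between the first and the last summit of the locus, 113 of 127 Pitx1 numbers were present, 89.0% (82.2 to 93.8), against 77.8% in the whole list. For Tbx5 60 of 62 were present, 96.8% (88.8 to 99.6), against 60.4%. The sources used here give no reason for the absent numbers. Because the locus was chosen by its number of deposited summits, a high share of present numbers is partly set by that choice. The run of numbers also begins and ends at a present one by definition. These shares are descriptions and were not tested.

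The lower edge of the window lies inside Samd8. The outermost Pitx1 summits inside were 5.9 and 11.2 kb from the edges and scored 3.825 each, and the nearest outside were 14.2 kb below, with a score of 5.371, and 88.7 kb above, with a score of 17.36. For Tbx5 the outermost inside scored 5.809 and 17.02, at 32.0 and 11.1 kb from the edges. The nearest Tbx5 summits outside were 103.9 kb below, with a score of 4.127, and 79.3 kb above, with a score of 5.809.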

How the data were processed

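Binding was measured by ChIP-seq in 1 sample each of Pitx1 (hindlimb, e11.5) and Tbx5 (forelimb, e10.5). The authors deposited summit positions on mm10 with a score. It was read as the −log10 q-value that MACS2 writes, since the lowest deposited scores, 1.31 and 1.42, lie just above 1.30, the −log10 of 0.05. MACS2 2.1.1.20160309 is named in the submitters' processing notes, and the word macs2 is in the peak names. Without saying for which step, the notes also name HOMER, Bowtie2 2.2.6 and Bowtie 1.1.2. For the control library, read depth and pooling the sources used here give no statement. A further score and a pair of distances that the authors deposited in the second Pitx1 list have no explanation and were not used.

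Scripts in Python 3.11.15 (pandas 2.3.3, SciPy 1.17.1) took genes, starts and the promoter from RefSeq tables of GRCm38.p6, in which both members matched. No genome sequence was used, so sequence around summits is not shown. Intervals are exact Clopper-Pearson at 95%, and depth being unknown, they cover counting of summits only. Distances, clusters and shares were checked on simulated positions. The locus, gene lists and choice of measures were fixed with earlier results of these data known, and no test was run. Named sites were the 10 highest scores per factor, the first 10 pairs and the 3 largest clusters per factor. Pairs were ordered by the worse of their 2 ranks among the summits of the locus. Stretches of bins, runs without a factor, pairs of unequal score and the short motif cores were added after values were seen. Alternatives changed the sharing distance, the list, the score range, the flanks and the joining gap.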

Additional observations from a re-analysis of the deposited data

How the results depend on the processing

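Of 24 alternatives over 11 results, 17 stayed within the counting interval of the reported value, or within 1.5 times of it for numbers of clusters. The share of Pitx1 summits with a Tbx5 partner, 30.1%, was 42.5% within 1000 bp and 40.5% with the second list. The share of Tbx5 summits with a Pitx1 partner, 56.7% within 200 bp, was 70.0% within 500 bp and 80.0% within 1000 bp, and 28.3% with the second Pitx1 list, which holds fewer summits. Over the whole lists, 89.3% of Pitx1 and 44.9% of Tbx5 summits lay over 1000 bp from the other factor. For 500 bp and the second list no whole-list share is given here. The values at these settings thus do not show whether the locus differs from the lists. With summits at or above the median score, the locus held 0.83% of the Tbx5 list in place of 0.584%, and the second list kept 63.3% of the Pitx1 summits in place of 37.2%. No paired analysis was possible because each factor has 1 sample and no test was run. Read depth is unknown for both lists, so differences in their length or scores cannot be read as differences in binding.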
